A study of Mus musculus with 14 samples.

Results

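Interferon-stimulated genes are the genes that cells switch on when interferon binds its receptors. The 43 described here are a named list, chosen by gene symbol: 24 antiviral effectors, 4 sensors of foreign nucleic acid, 4 transcription factors, 5 immunity-related GTPases and 6 enzymes of ubiquitin, ISG15 or ADP-ribose transfer. All 43 were among the 24833 genes counted in mouse bone marrow cells enriched for hematopoietic stem cells, and all 43 were among the 15466 genes with enough counts to be tested. The guanylate-binding proteins were not part of the list.

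Type I interferons act through the receptor chains IFNAR1 and IFNAR2 and the kinases JAK1 and TYK2, which switch on the transcription complex ISGF3, of which STAT2 and IRF9 are parts. ISGF3 binds the interferon-stimulated response element (ISRE). Interferon gamma acts through IFNGR1, IFNGR2, JAK1 and JAK2 on genes with a gamma-activated site (GAS), and IRF1 made in response can also act at ISRE-like sites. Stem cells are known to keep a set of these genes on at rest, and interferon given to mice is known to draw resting hematopoietic stem cells into division.

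The series set C57BL/6 mice that received interleukin-1 beta (IL-1β) against mice that received phosphate-buffered saline (PBS), by intraperitoneal injection for 1 day (acute) or 20 days (chronic). IL-1β is a cytokine of inflammation, and each mouse got 0.5 µg of it daily. The labels name no genetic change in any group, and give neither age nor sex. Cells were sorted by the SLAM scheme as lineage-negative, Sca-1-positive and Kit-positive cells without Flk2 or CD48 and with CD150, and each library is a separate pool of cells from 3 to 5 mice, so spread between single animals is not measured. Each 1-day group has 3 libraries and each 20-day group has 4.

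The 14 libraries held 21654896 to 29441947 counts each, and a single member's count in a library ran from 12 (Mx1) to 14796 (Ifitm3). Genes of the sort gate were present throughout, Kit at 601 to 1680 CPM (counts scaled to a common library total) and Slamf1, which encodes CD150, at 40.4 to 117 CPM. By a tag in their titles, whose meaning is not stated, the libraries form 4 naming sets that are balanced for treatment. At 1 day replicates 1 and 2 carry "E060216" and 1 library of each treatment, numbered here as replicate 3, carries "10k". At 20 days replicates 1 and 2 carry "E061316", and replicates 3 and 4 have no tag. One library, IL-1β replicate 3 at 20 days, stood apart in neutrophil genes, with a summed level over 13 genes of 2645 CPM where the other 13 libraries had 99.1 to 195 CPM. Results at 20 days are therefore also given without it.

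The promoters are shown first, because interferon motifs stood in a larger share of them than of the promoters of all genes, though some held none. RefSeq promoter sequences (build GRCm38.p6, from 250 bases before to 50 after the start site) were held for 32 of the 43 members. They were searched on both strands for an ISRE core, GAAANNGAAA, and for a GAS, TTCNNNGAA, which reads the same on both strands. The 8 stretches below belong to members that fell with IL-1β or, for Irgm2, to the neighbour of one. They are written 5′ to 3′ on the gene's strand, capitals mark ISRE core and GAS matches, and TTTCNNTTTC is an ISRE core on the other strand. None overlaps an annotated exon.
Tgtp1, chr11:48992294-48992354, minus strand: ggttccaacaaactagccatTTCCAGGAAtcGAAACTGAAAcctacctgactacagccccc
Igtp, chr11:58199491-58199551, plus strand: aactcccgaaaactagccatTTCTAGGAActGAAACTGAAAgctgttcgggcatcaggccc
Irgm2, chr11:58214882-58214942, plus strand: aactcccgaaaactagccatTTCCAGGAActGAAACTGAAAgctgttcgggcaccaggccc
Bst2, chr8:71537567-71537628, minus strand: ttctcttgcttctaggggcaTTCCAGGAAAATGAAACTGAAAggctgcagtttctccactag
Ifit1, chr19:34640765-34640833, plus strand: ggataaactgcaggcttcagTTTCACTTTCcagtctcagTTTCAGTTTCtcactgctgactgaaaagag
Ifit3, chr19:34583353-34583436, plus strand: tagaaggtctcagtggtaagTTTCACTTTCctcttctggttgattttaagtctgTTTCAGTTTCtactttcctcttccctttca
Rsad2, chr12:26456543-26456592, minus strand: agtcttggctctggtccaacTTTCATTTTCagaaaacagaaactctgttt
Isg20, chr7:78913331-78913379, plus strand: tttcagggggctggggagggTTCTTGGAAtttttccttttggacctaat

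Of the 4 GTPase promoters in the table, 3 shared a layout: in Tgtp1, Igtp and Irgm2 a GAS began 11 bases before an ISRE core. The promoter of Irgm1 held 2 ISRE cores and no GAS. In Bst2 a GAS began 6 bases before the first of a pair of overlapping ISRE cores, with which it shares bases. The Ifit1 and Ifit3 stretches each held 2 ISRE cores and no GAS, Rsad2 held 1 ISRE core, and Isg20 held a GAS only. The Irgm2 stretch lies within the annotated span of Irgm2, outside its exons, and the Tgtp1 stretch within the spans of Tgtp1 and of Olfr56. The other 6 stretches lie outside every annotated gene.

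An ISRE core stood in 17 of the 32 member promoters (53.1%), against 3.99% of the 27025 genes with a promoter in the table. A GAS stood in 13 of 32 (40.6%), against 9.55%. On the gene's own strand alone the ISRE core share was 37.5% of members and 2.06% of all genes. By role, the ISRE core was found in 9 of 19 effectors, 2 of 2 sensors, 1 of 4 transcription factors, 4 of 4 GTPases and 1 of 3 enzymes. Among the 10 members that fell at either duration, 8 had a promoter entry, 6 of them with an ISRE core and 4 with a GAS. Among the 33 members called at neither duration, 24 had an entry, 11 with an ISRE core and 9 with a GAS. A match describes the letters in this window and says nothing of whether a factor binds there.

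**Figure D1:**
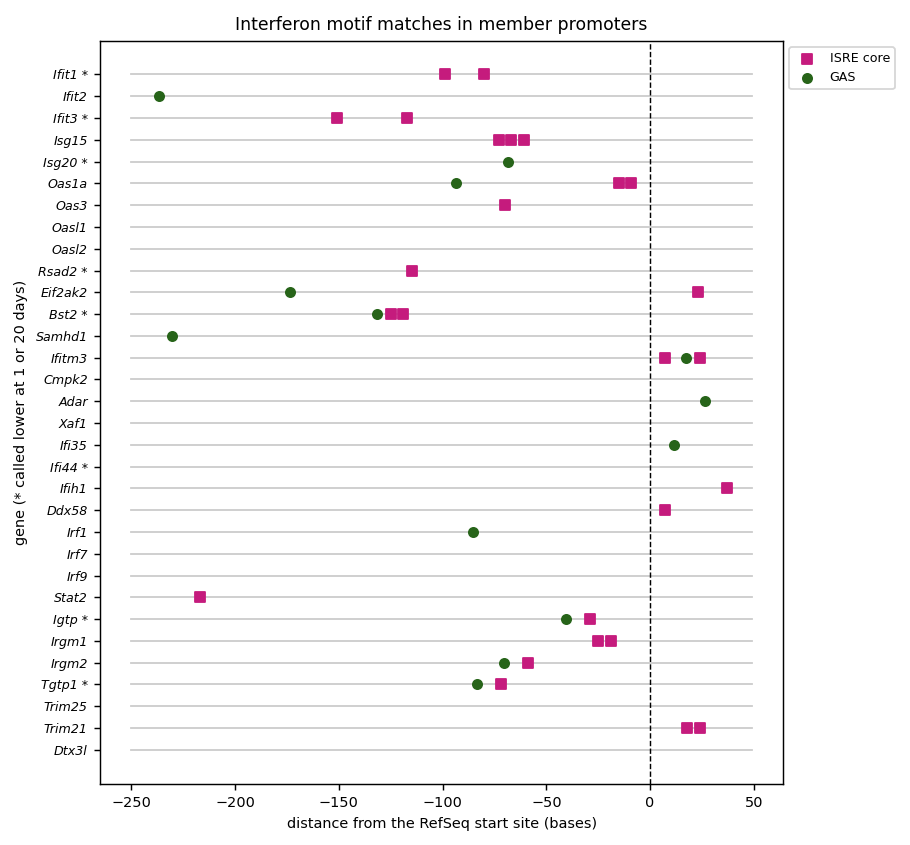
Positions of ISRE core (squares) and GAS (circles) matches in the 32 member promoters held in RefSeq, as the distance of the match's centre from the start site in bases; grey lines span the 300 bases searched and asterisks mark members that fell with IL-1β. Tgtp1, Igtp and Irgm2 show the same spacing of a GAS just before an ISRE core, and several promoters, Ifi44 among them, hold neither motif.

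Several members sit side by side, which bears on how far they count as separate genes. Ifit2, Ifit3 and Ifit1 follow each other on chromosome 19, Rsad2 and Cmpk2 lie head to head 12751 bases apart on chromosome 12, and Mx1 and Mx2, and Parp14, Dtx3l and Parp9, are neighbours on chromosome 16. Oasl2 and Oasl1, and Oas2 and Oas3, are pairs on chromosome 5. Igtp and Irgm2 on chromosome 11 share 162 bases of exon on the same strand, and Dtx3l and Parp9 share 458 bases on opposite strands, which the library chemistry does not tell apart. Genes outside the list overlap members too. Tgtp1 shares 223 exon bases (6.96%) with Gm12185 on the same strand. Larger shares overlap in Adar (16.8%, Chrnb2) and Ifi35 (16.8%, Gm11626) on opposite strands, and in Rtp4 (13.9%, Gm45338). Tgtp1 and Tgtp2, Ifit3 and Ifit3b, and Oas1a and Oas1g are close copies whose reads the counting could split or drop, so their values are uncertain to that extent.

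All members were read in every library, at levels that differed widely. Over the 7 PBS libraries, per kilobase of exon, Ifitm3, which encodes a membrane protein that blocks viral entry, was highest at 691 CPM per kb. Bst2 (tetherin, which holds budding virions at the cell surface) followed at 96.9, Ifi27 at 87.5 and the GTPase gene Igtp at 57.4 CPM per kb. The lowest were the dynamin-like GTPase genes Mx1 at 0.954 and Mx2 at 1.53 CPM per kb, and Ifit3 at 3.44 CPM per kb. Mx2 is annotated as a polymorphic pseudogene, so its RNA need not make a working protein. Between the ends the order is fine-grained and many neighbours overlapped across libraries. The spread over the 7 PBS libraries was smallest for Tgtp1, with a coefficient of variation of 5.28%, and largest for Ifit3, at 34.2%.

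**Figure D2:**
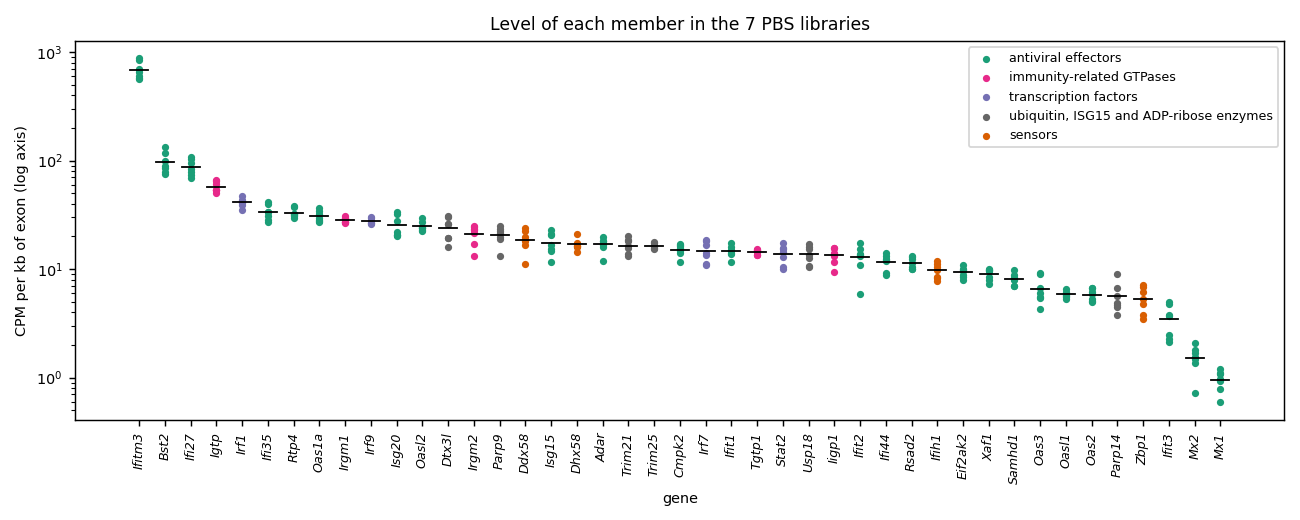
Level of each member in the 7 PBS libraries, in CPM per kilobase of exon on a log axis, ordered by mean (bar), with points as libraries coloured by role. Ifitm3 at 691 CPM per kb stands above the rest, and Ifit3, Mx2 and Mx1 are lowest.

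With IL-1β the members went down or did not pass the test, and none rose at either duration. At 1 day 8 of 43 fell (Ifit1, Ifit3, Isg20, Rsad2, Ifi44, Zbp1, Iigp1 and Tgtp1), where 1.83% of all genes tested fell and 2.52% rose. At 20 days 7 of 43 fell (Ifit3, Isg20, Bst2, Ifi44, Igtp, Iigp1 and Tgtp1), where 3.52% of all genes fell and 3.94% rose. Ifit3, Isg20, Ifi44, Iigp1 and Tgtp1 fell at both, 5 of 43 members (11.6%) against 78 of all genes tested (0.504%). A gene is said here to fall or rise where its Benjamini-Hochberg adjusted p, over all genes tested with edgeR's quasi-likelihood F-test, was under 0.05. Throughout, the log2 fold change is IL-1β over PBS and its SE is approximate. Levels of members and pathway genes are CPM scaled by TMM (trimmed mean of M-values). Sums over gene lists and levels of cell type markers are CPM of the library total, without TMM.

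The lower values reached past the called members at 1 day. There 39 of 43 log2 fold changes were below 0, with a median of -0.30, where 52% of all genes were below 0 with a median of -0.01, and 22 members had an unadjusted p under 0.05, as did 2900 of all 15466 genes. At 20 days 26 of 43 were below 0 with a median of -0.14, where 50.1% of all genes were below 0, and 17 members had an unadjusted p under 0.05, as did 3160 of all genes. Every IL-1β library lay below every PBS library for 14 members at 1 day, against 8.91% of all genes, and for 8 members at 20 days, against 4.99%. No member had every IL-1β library above every PBS library, none had an unadjusted p under 0.05 in the higher direction, and DESeq2 called none higher at either duration. In bulk RNA, fewer cells that express a gene and less RNA of it per cell cannot be told apart.

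The number that fell moved with single libraries. At 1 day it lay between 4 and 18 when 1 library was left out. It was 4 without PBS replicate 2 or IL-1β replicate 1 or 3, and 5 without PBS replicate 1 or 3, all of 1 day, while it was 18 without PBS replicate 4 of 20 days. Over the whole table, 283 genes fell at 1 day with all libraries, and 59 to 486 when 1 was left out. The 486 came without that same library of 20 days. At 20 days the number of members lay between 3 and 8, and was 3 without PBS replicate 3 or IL-1β replicate 1, 3 or 4. The whole table there gave 316 to 607, against 545 with all libraries. The 3 that fell without IL-1β replicate 3, the library with neutrophil genes, were Bst2 (log2 fold change -0.65), Iigp1 (-0.53) and Tgtp1 (-0.61). Ifit1, Ifit3, Rsad2 and Tgtp1 at 1 day, and Bst2 and Tgtp1 at 20 days, fell under each of the 21 alternatives tried. Without the naming set as a term, Ifit1, Ifit3, Rsad2 and Tgtp1 fell at 1 day and Ifit3, Bst2 and Tgtp1 at 20 days.

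**Figure D3:**
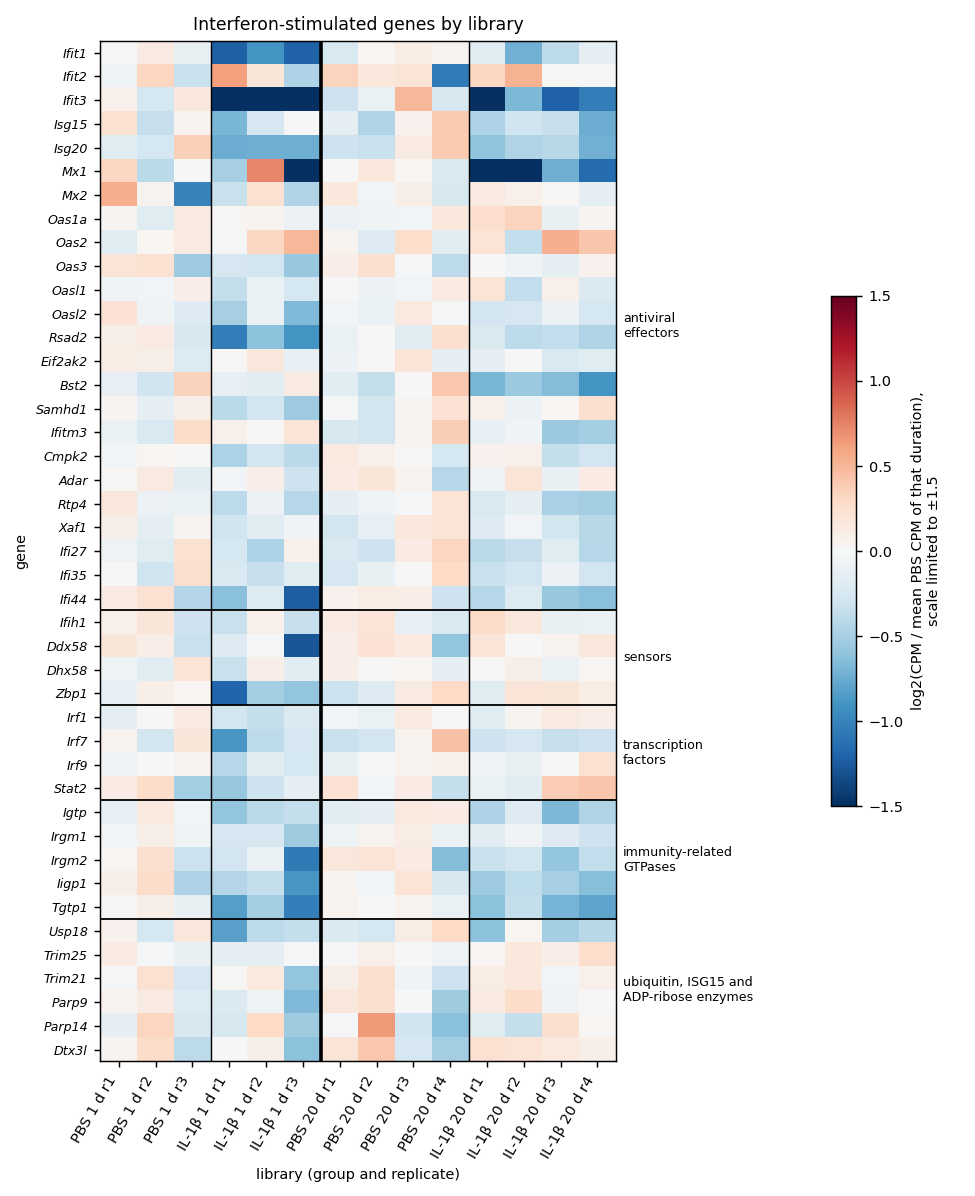
Each member (rows, grouped by role) in each of the 14 libraries (columns), coloured by log2 of its CPM over the mean PBS CPM of the same duration, with the colour scale limited to ±1.5. Blue cells dominate the 1-day IL-1β columns across roles, whereas at 20 days they gather in the immunity-related GTPases and in effectors such as Ifit3, Isg20 and Bst2.

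The effectors held the largest decreases. Of 24, 5 fell at 1 day with a median log2 fold change of -0.27, and 4 fell at 20 days with a median of -0.23. Ifit1 (chr19:34640871-34650009, plus strand), whose protein binds viral RNA that lacks the host's cap methylation, read 42.4, 46.7 and 40.0 CPM in the PBS libraries of 1 day and 18.5, 23.2 and 18.5 CPM with IL-1β. The groups were far apart, and all 3 IL-1β libraries were at about the same low level. The means were 43.03 ± 3.41 (SD, n = 3) and 20.1 ± 2.71 CPM (SD, n = 3), a log2 fold change of -1.10 ± 0.15 (SE; adjusted p = 0.00105). At 20 days Ifit1 read 31.0, 37.0, 39.0 and 37.6 CPM with PBS and 32.4, 21.9, 27.4 and 33.0 CPM with IL-1β. There the groups overlapped, and the log2 fold change of -0.33 ± 0.13 did not pass (adjusted p = 0.157).

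Ifit3 (chr19:34583531-34588731, plus strand), of the same family, had the largest decrease of all members, at a low level. Its PBS libraries of 1 day read 8.24, 6.5 and 8.75 CPM and its IL-1β libraries 2.01, 1.40 and 2.05 CPM, with no overlap. This was 4.29-fold lower, a log2 fold change of -2.10 ± 0.33 (adjusted p = 0.0022). The 20-day libraries read 3.75, 4.32, 6.56 and 3.93 CPM with PBS and 1.33, 2.91, 2.0 and 2.27 CPM with IL-1β, again without overlap. The log2 fold change there was -1.11 ± 0.28 (adjusted p = 0.0258), and it no longer passed without PBS replicate 2 or 3 or IL-1β replicate 1, 3 or 4 of 20 days (adjusted p = 0.0579 to 0.0906). Ifit2, the neighbour on the same strand, did not follow: its log2 fold changes were 0.14 ± 0.23 and 0.23 ± 0.20, and neither passed.

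Rsad2 (chr12:26442746-26456452, minus strand) encodes viperin, which makes a chain-terminating nucleotide. It read 54.1, 55.5 and 43 CPM with PBS at 1 day and 24.7, 33.1 and 27.3 CPM with IL-1β. The groups did not overlap, and the log2 fold change was -0.83 ± 0.14 (adjusted p = 0.00358). After 20 days Rsad2 read 45.7, 49.3, 43.5 and 57.7 CPM with PBS and 42.2, 37.4, 37.8 and 35.9 CPM with IL-1β. Each IL-1β library was again below each PBS library, but by less, and the log2 fold change of -0.36 ± 0.12 did not pass (adjusted p = 0.0947). Its head-to-head neighbour Cmpk2, a nucleotide kinase gene, had -0.38 ± 0.10 at 1 day (adjusted p = 0.0522) and -0.12 ± 0.09 at 20 days (adjusted p = 0.53).

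Isg20 (chr7:78913424-78920396, plus strand), an RNA exonuclease gene, read 40.8, 38.7 and 59.6 CPM with PBS at 1 day and 27.8, 27.8 and 27.9 CPM with IL-1β. The 3 treated libraries were nearly equal while PBS replicate 3 was high, and the groups did not overlap. Its log2 fold change was -0.71 ± 0.17 (adjusted p = 0.0259), and it did not pass without any 1 of the 6 libraries of 1 day (adjusted p = 0.0588 to 0.174). At 20 days Isg20 read 38.5, 38.0, 51.9 and 62.6 CPM with PBS and 31.4, 34.9, 35.9 and 29.0 CPM with IL-1β, without overlap. With a log2 fold change of -0.51 ± 0.14 it passed (adjusted p = 0.0426), and leaving out any 1 of 7 libraries ended this call (PBS replicate 2 and IL-1β replicate 2 of 1 day, PBS replicates 3 and 4 and IL-1β replicates 1, 3 and 4 of 20 days; adjusted p = 0.0536 to 0.131).

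Ifi44 (chr3:151730922-151749960, minus strand), a gene of a GTPase-related protein of unclear action, read 80.3, 86.4 and 54.6 CPM with PBS at 1 day and 47.7, 63.9 and 31.4 CPM with IL-1β. The "10k" libraries were the lowest of each group and the groups overlapped. Within the fit that holds the naming sets apart, the log2 fold change was -0.65 ± 0.13 (adjusted p = 0.0108). It did not pass without PBS replicate 2 or 3 or IL-1β replicate 1 or 3 of 1 day (adjusted p = 0.0592 to 0.0762). At 20 days Ifi44 read 72.6, 75.4, 74.5 and 56.3 CPM with PBS and 51.9, 60.3, 47.0 and 45.2 CPM with IL-1β, overlapping only through PBS replicate 4. Its log2 fold change of -0.45 ± 0.11 passed (adjusted p = 0.026), and the call ended without PBS replicate 2 or 3 or IL-1β replicate 1, 3 or 4 of 20 days (adjusted p = 0.0576 to 0.0886).

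Bst2 (chr8:71534255-71537456, minus strand) passed the test at 20 days and not at 1 day. At 1 day it read 76.8, 68.0 and 106 CPM with PBS and 76.8, 74.5 and 91.9 CPM with IL-1β, with a log2 fold change of -0.03 ± 0.15. At 20 days it read 81.2, 70.6, 89.7 and 120 CPM with PBS and 56.1, 61.7, 57.4 and 48.6 CPM with IL-1β. The 20-day groups did not overlap, the treated libraries were close together and the PBS libraries wide apart. The change of -0.67 ± 0.13 on the log2 scale passed (adjusted p = 0.00753). The difference between the durations, -0.65 ± 0.20, did not pass (adjusted p = 0.112), whereas DESeq2 called it (adjusted p = 0.0325).

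**Figure D4:**
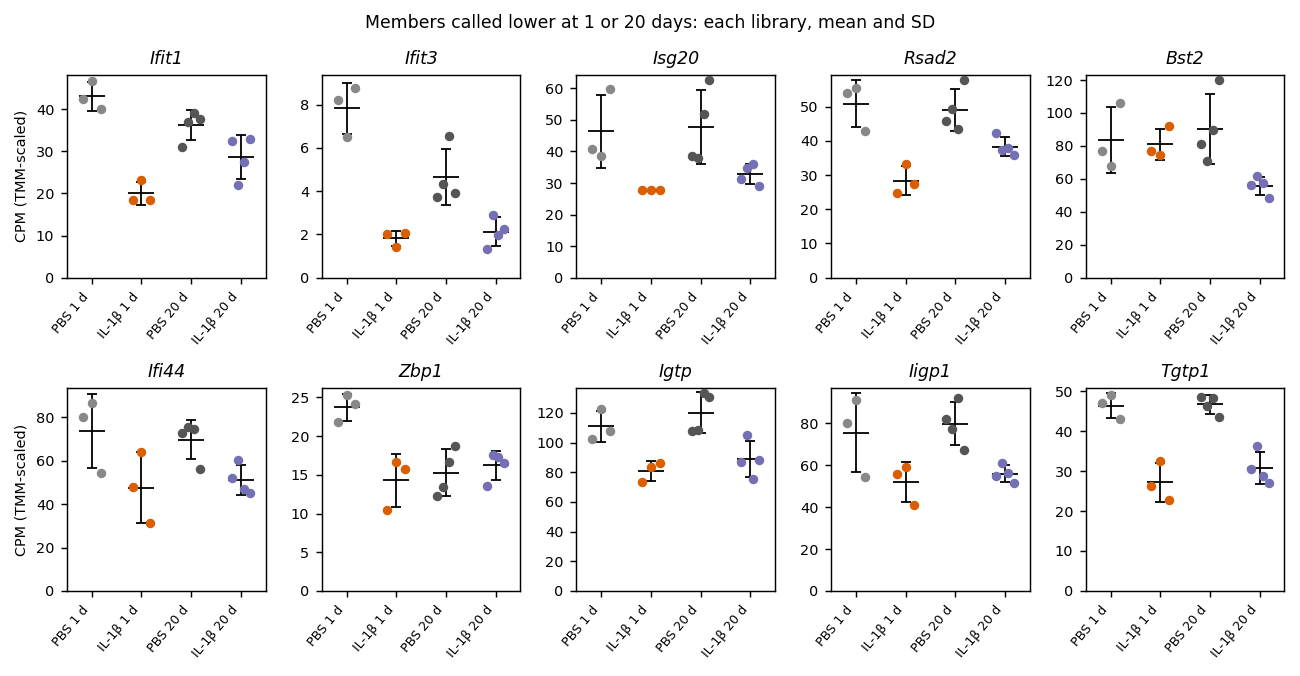
CPM of the 10 members that fell at 1 or 20 days, with each library as a point and the mean and SD of each group as lines; every axis starts at 0. Ifit1 and Zbp1 are lower with IL-1β mainly at 1 day, Bst2 at 20 days, and Ifit3, Isg20, Rsad2, Igtp and Tgtp1 have non-overlapping groups at both.

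Of the other 18 effectors, none passed at either duration in edgeR. DESeq2 called 8 of all 24 lower at 1 day and 6 at 20 days, where it called 657 and 879 of the 15466 genes lower. Mx1 had a log2 fold change of -1.53 ± 0.48 at 20 days, with PBS at 4.11, 4.56, 4.19 and 3.54 CPM and IL-1β at 0.826, 0.971, 2.47 and 1.84 CPM. Those groups did not overlap, the libraries of 20 days held 23 to 124 counts of Mx1 each, and the change did not pass (adjusted p = 0.0718). At 1 day the IL-1β libraries of Mx1 spread from 0.439 to 4.91 CPM. The oligoadenylate synthetase genes, whose products activate RNase L, went both ways: Oas2 had 0.27 ± 0.18 and 0.22 ± 0.15, Oas3 -0.33 ± 0.14 and -0.02 ± 0.12, and Oas1a -0.00 ± 0.13 and 0.13 ± 0.11 at 1 and 20 days. The related Oasl2 had -0.40 ± 0.11 at 1 day (adjusted p = 0.0534). Isg15, the ubiquitin-like modifier, had -0.30 ± 0.23 and -0.43 ± 0.20, with neither passing. Ifitm3, the most abundant member, had 0.11 ± 0.17 and -0.29 ± 0.15, and Eif2ak2 (the kinase PKR) and Adar (an RNA-editing deaminase) lay between -0.14 and 0.05 at both durations.

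Among the 4 sensors 1 fell. Zbp1 (chr2:173206612-173218923, minus strand), whose protein senses Z-form nucleic acid and can start necroptosis, read 21.9, 25.3 and 24.1 CPM with PBS at 1 day and 10.4, 16.7 and 15.8 CPM with IL-1β. The groups did not overlap, and the log2 fold change was -0.74 ± 0.18 (adjusted p = 0.0345). It did not pass without PBS replicate 1, 2 or 3 or IL-1β replicate 1 or 3 of 1 day (adjusted p = 0.0788 to 0.201). At 20 days Zbp1 read 12.3, 13.4, 16.7 and 18.8 CPM with PBS and 13.5, 17.5, 17.4 and 16.5 CPM with IL-1β, fully overlapping, with a log2 fold change of 0.10 ± 0.16. The RNA helicase sensors Ddx58 (RIG-I), Ifih1 (MDA5) and Dhx58 (LGP2) did not pass at either duration. Ddx58 had the widest gap of these, -0.48 ± 0.17 at 1 day (adjusted p = 0.149) and 0.12 ± 0.15 at 20 days.

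None of the 4 transcription factor genes passed in edgeR, whereas 3 had an unadjusted p under 0.05 at 1 day. DESeq2 called 3 lower at 1 day, where it called 657 of the 15466 genes lower, and 0 at 20 days. At 1 day all 4 were below 0, with a median log2 fold change of -0.29. Irf7, the factor that amplifies interferon production, had -0.48 ± 0.17, Stat2 -0.31 ± 0.21, Irf9 -0.28 ± 0.09 and Irf1 -0.28 ± 0.09. Irf1 read 139, 154 and 168 CPM with PBS at 1 day and 127, 120 and 132 CPM with IL-1β, and Irf9 140, 144 and 150 against 108, 129 and 121 CPM. Neither pair of groups overlapped, although neither gene passed (adjusted p = 0.0929 and 0.106). At 20 days the median was 0.02, and Irf1 (0.03 ± 0.08) and Irf9 (0.02 ± 0.08) had the narrowest errors about 0.

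The immunity-related GTPases act on the membranes of vacuoles that hold pathogens, and Irgm1 is known to restrain the division of hematopoietic stem cells. All 5 were below 0 with an unadjusted p under 0.05 at 1 day and at 20 days, which no other role showed. Their medians were -0.46 and -0.43, where those of the effectors were -0.27 and -0.23, about as close to each other. Of the 5, 2 fell at 1 day and 3 at 20 days. Their summed level was 407 to 533 CPM with PBS and 296 to 372 CPM with IL-1β at 1 day, and 456 to 539 against 366 to 420 CPM at 20 days. The sums did not overlap between treatments at either duration. This was not particular to the GTPases. The effector sums did not overlap either, at 1746 to 1877 against 1519 to 1617 CPM at 1 day. At 20 days they were 1588 to 1953 against 1449 to 1578 CPM. The transcription factor sums did not overlap at 1 day (429 to 456 against 309 to 377 CPM) but did at 20 days.

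Tgtp1 (chr11:48985327-48994172, minus strand), which encodes Irgb6, was the steadiest member. It read 47.0, 49.1 and 42.9 CPM with PBS at 1 day and 26.2, 32.5 and 22.8 CPM with IL-1β. The 20-day values were 48.5, 46.3, 48.3 and 43.5 CPM with PBS and 30.5, 36.3, 28.8 and 27.1 CPM with IL-1β. The 7 PBS libraries were at nearly one level and all 7 IL-1β libraries lay below them. The log2 fold changes were -0.78 ± 0.12 (adjusted p = 0.00238) and -0.61 ± 0.11 (adjusted p = 0.00309), or 1.71-fold and 1.53-fold lower. Its close copy Tgtp2, not a member, fell at 1 day (-0.66 ± 0.12, adjusted p = 0.00718), a call that ended without IL-1β replicate 3 of 1 day (adjusted p = 0.0593).

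Iigp1, which encodes Irga6, read 80.4, 91.4 and 54.6 CPM with PBS at 1 day and 55.8, 59.0 and 41.1 CPM with IL-1β. The groups overlapped through the "10k" PBS library. The log2 fold change was -0.52 ± 0.12 (adjusted p = 0.0225), and it did not pass without PBS replicate 1 or 2 or any 1 IL-1β library of 1 day (adjusted p = 0.0511 to 0.133). After 20 days Iigp1 read 82.3, 77.5, 92.0 and 67.5 CPM with PBS and 54.7, 61.3, 56.5 and 51.3 CPM with IL-1β, without overlap. This change of -0.51 ± 0.10 passed (adjusted p = 0.00786), and no single library ended that call.

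Igtp (chr11:58199556-58207591, plus strand), which encodes Irgm3, read 102, 123 and 108 CPM with PBS at 1 day and 73.3, 83.5 and 86.2 CPM with IL-1β. It read 108, 108, 133 and 131 CPM with PBS at 20 days and 86.9, 105, 75.4 and 88.0 CPM with IL-1β. The groups did not overlap at either duration. The log2 fold change was -0.45 ± 0.13 at 1 day, which did not pass (adjusted p = 0.0747), and -0.43 ± 0.12 at 20 days, which did (adjusted p = 0.0383). The second call ended without IL-1β replicate 2 of 1 day, PBS replicate 3 or 4, or IL-1β replicate 1, 3 or 4 of 20 days (adjusted p = 0.0564 to 0.139). Irgm2, with which it shares exon bases, had -0.46 ± 0.17 and -0.38 ± 0.14, and Irgm1 had -0.34 ± 0.10 and -0.18 ± 0.08, none of which passed.

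None of the 6 enzymes passed in edgeR or in DESeq2, and 2 had an unadjusted p under 0.05 at 1 day and 0 at 20 days. Their median was -0.14 at 1 day and 0.10 at 20 days. Usp18, which removes ISG15 from proteins and blocks the receptor chain IFNAR2, had -0.51 ± 0.19 (adjusted p = 0.157) and -0.34 ± 0.17 (adjusted p = 0.26). Its groups did not overlap at 1 day, with PBS at 44.5, 35.5 and 47.8 CPM and IL-1β at 24.2, 32.3 and 33.3 CPM. The ubiquitin ligase genes Trim25 and Trim21 and the ADP-ribose transfer genes Parp9, Parp14 and Dtx3l (the ligase that partners PARP9) lay between -0.31 and -0.10 at 1 day and between -0.01 and 0.21 at 20 days.

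**Figure D5:**
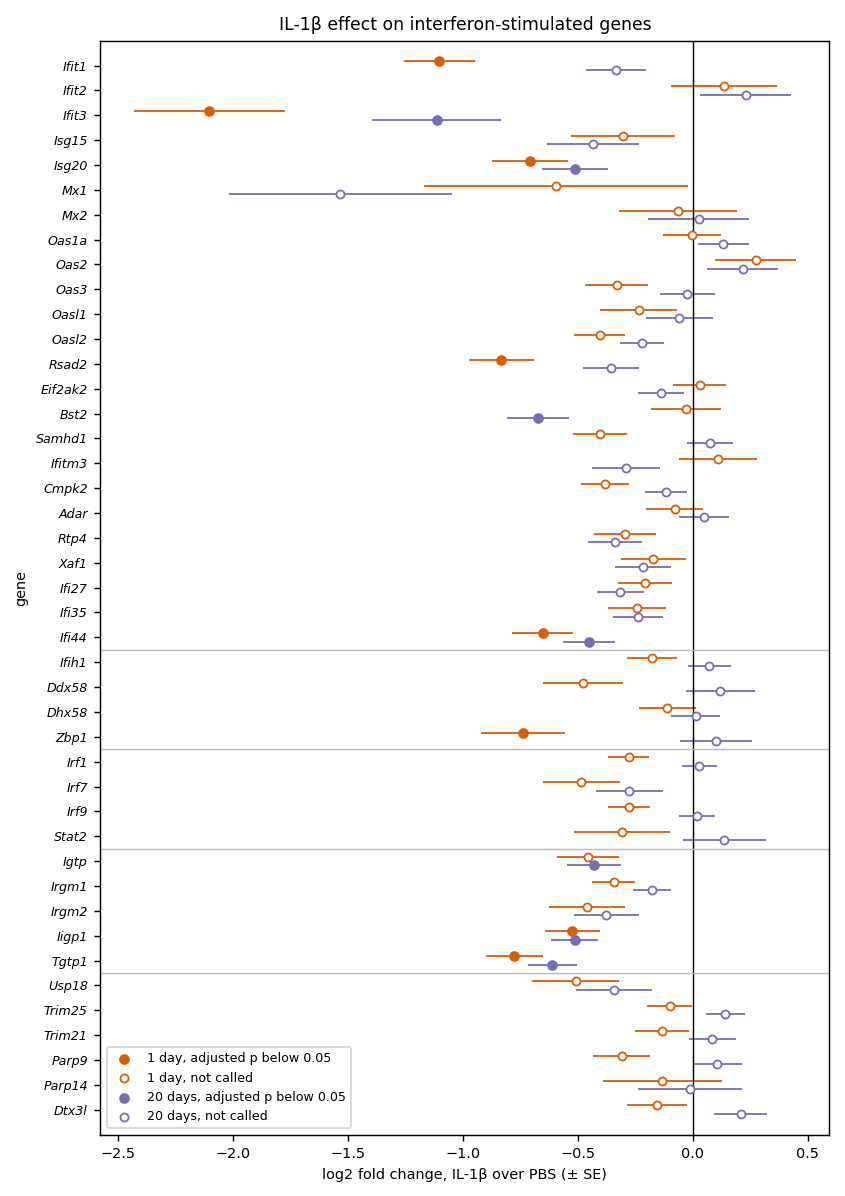
Log2 fold change of IL-1β over PBS for each member at 1 day (orange) and 20 days (purple), with bars of 1 SE; filled points passed the adjusted threshold. At 1 day 39 of 43 points lie below 0, and at 20 days the sensors, transcription factors other than Irf7, and most enzymes lie near 0 while the GTPases remain below it.

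Whether the 20-day effect differed from the 1-day effect was tested in the same fit. No member passed in edgeR, where 2.14% of all genes did. The median of the difference was 0.17, 34 of 43 members were above 0, and 10 had an unadjusted p under 0.05. Of all 15466 genes, 7955 were above 0 and 2842 had an unadjusted p under 0.05, a share near that of the members. DESeq2 called 1182 of all genes and, at a similar share, 4 members. These were Ifit1, Zbp1 and Samhd1 with a 20-day effect above that of 1 day, and Bst2 with one below it. In edgeR these differences were 0.77 ± 0.20 for Ifit1 (adjusted p = 0.0624), 0.84 ± 0.24 for Zbp1 (adjusted p = 0.0839) and 0.48 ± 0.15 for Samhd1, a dNTP hydrolase gene (adjusted p = 0.117). Without IL-1β replicate 2 of 20 days 1 member, Ifit1, passed. For the 5 GTPases the difference lay between 0.01 and 0.17 with none at an unadjusted p under 0.05.

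PBS at 20 days was set against PBS at 1 day to see whether the resting level of the members moved with the length of injection. Each naming set belongs to a single duration, so set and duration cannot be told apart here. No gene of the table passed in edgeR (0% of genes tested), and 3 members had an unadjusted p under 0.05, as did 676 of all 15466 genes. DESeq2 called 10 genes and no member. The 3 members, all lower at 20 days, were Zbp1 (-0.63), Ifit3 (-0.75) and Oas3 (-0.47 on the log2 scale).

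Within each naming set alone, the median log2 difference of mean CPM over the members was below 0, at different sizes. The share below 0 over all genes was not computed for single sets, and "10k" holds 1 library of each treatment. At 1 day the median member stood at -0.26 in "E060216", with 35 of 43 below 0, and at -0.34 in "10k", with 38 below 0. At 20 days it stood at -0.08 in "E061316", with 30 below 0, and at -0.24 in the untagged set, with 26 below 0. Tgtp1 was at -0.71, -0.91, -0.51 and -0.72 in these 4 sets, and Ifit3 at -2.11, -2.10, -0.93 and -1.30. Bst2 differed more between the 20-day sets, at -0.37 and -0.98. Without both "10k" libraries, Ifit1, Ifit3, Rsad2, Iigp1 and Tgtp1 fell at 1 day.

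Other genes of the pathway were read from lists of ligands, receptors and signal carriers, negative regulators, inducers and further interferon-responsive genes. The 4 interferon genes in the table had few counts: Ifnb1 had 3 counts over all 14 libraries, Ifnk 6, Ifnab 30 and Ifnz 63, with at most 14 in a library.

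Of the 9 receptor and signalling genes tested, 2 rose at 20 days, both by small amounts: the receptor genes Ifnar2 (0.27 ± 0.07, adjusted p = 0.0372) and Ifngr2 (0.44 ± 0.12, adjusted p = 0.043). Leaving out any 1 of 12 libraries ended the Ifnar2 call, all but those of the "10k" set (adjusted p = 0.0535 to 0.124). Any 1 of 10 ended the Ifngr2 call: 7 of the 8 libraries of 20 days, PBS replicate 4 being the exception, with PBS replicate 2 and IL-1β replicates 1 and 2 of 1 day (adjusted p = 0.0543 to 0.126). Of 13 negative regulators, Socs3, which blocks JAK kinases, rose at both durations, by 1.25 ± 0.33 (adjusted p = 0.0434) and 1.80 ± 0.28 (adjusted p = 0.0013). At 1 day PBS replicate 3 read 145 CPM of Socs3 where PBS replicates 1 and 2 read 14.4 and 18.8, and the 1-day call ended without any 1 of 8 libraries (PBS and IL-1β replicates 1 and 2 of 1 day, PBS replicates 2 and 4 and IL-1β replicates 1 and 3 of 20 days; adjusted p = 0.0514 to 0.218). At 20 days its groups were far apart, at 27.5 to 35.6 CPM with PBS and 71.3 to 160 CPM with IL-1β.

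Of 13 genes of interferon induction, Irf5 fell at 1 day (-0.60 ± 0.16, adjusted p = 0.0433), a call that leaving out any 1 of 9 libraries ended (all 6 of 1 day, PBS replicate 1 and IL-1β replicates 2 and 3 of 20 days; adjusted p = 0.0501 to 0.221). Of 56 further interferon-responsive genes tested, 3 fell and 2 rose at 1 day, where 1.83% of all genes fell and 2.52% rose. Their median was -0.16. At 20 days 2 fell and 1 rose, where 3.52% of all genes fell and 3.94% rose. Their median there was -0.07. The Schlafen genes went apart: at 1 day Slfn9 rose (0.83 ± 0.16, adjusted p = 0.00733) while Slfn5 fell (-1.03 ± 0.24, adjusted p = 0.025). Slfn2, known for its part in immune cell quiescence, fell at 20 days by 1.37 on the log2 scale (SE 0.11, adjusted p = 5.51e-06). It read 84.8, 84.7, 69.8 and 89.6 CPM with PBS and 33.7, 37.1, 30.8 and 26.3 CPM with IL-1β. The groups did not overlap, and the call held without any 1 library.

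Slfn5 lost its call without PBS replicate 1, 2 or 3 or IL-1β replicate 1 or 3 of 1 day (adjusted p = 0.0509 to 0.151). Aim2, a sensor of cytosolic DNA, rose at 20 days (0.60 ± 0.15, adjusted p = 0.0216), and the call ended without PBS replicate 2, 3 or 4 or IL-1β replicate 1 or 4 of 20 days (adjusted p = 0.0508 to 0.101). Sp110, a nuclear body protein gene, fell at 20 days (-0.31 ± 0.08, adjusted p = 0.0308), and the call ended without PBS replicate 1, 2 or 3 or IL-1β replicate 1 or 4 of 20 days (adjusted p = 0.0624 to 0.108). Without the naming set term, the calls of Slfn9 (adjusted p = 0.157), Slfn5 and Irf5 at 1 day, of Socs3 at both durations (0.809 and 0.173) and of Ifnar2, Ifngr2, Aim2 and Sp110 at 20 days ended. Outside the 43 members, calls among interferon-responsive genes were thus few and lay in both directions, which is no result about them as a set.

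Markers of other cells a marrow sort could hold were read beside these results. The summed level of 11 macrophage genes was 69.4 to 82.7 CPM with PBS and 60.4 to 72.3 CPM with IL-1β at 1 day, and 55.6 to 87.8 against 64.1 to 75.7 CPM at 20 days. Cd68, Axl and Cd163 were at 11.0 CPM or more in every library, while none of the other 8 exceeded 10.7 CPM in any. The median log2 fold change of the 11 was -1.15 at 1 day and -0.95 at 20 days, with 8 of 11 below 0 and 5 at an unadjusted p under 0.05 at each duration. None passed at 1 day, and 2 fell and 1 rose at 20 days. The sum of 8 genes of plasmacytoid and other dendritic cells, Bst2 among them, was 203 to 212 CPM with PBS and 191 to 214 CPM with IL-1β at 1 day. At 20 days it was 191 to 251 against 177 to 208 CPM. Tcf4 was at 102 to 144 CPM and Bst2 at 50.6 to 123 CPM, and none of the others exceeded 6.60 CPM in any library. Siglech, a marker gene of plasmacytoid dendritic cells, which are a source of interferon, had at most 2 counts in a library and was at 0 in 12 of 14. Flt3 and Cd48, the genes of the markers gated out, both rose at 20 days, with a sum of 43.9 to 65.6 CPM with PBS and 84.2 to 148 CPM with IL-1β. Sums of 9 erythroid genes were 46.9 to 72.9 against 154 to 191 CPM at 20 days, and sums of 6 T and NK cell genes 43.3 to 58.8 against 91.3 to 110 CPM, mostly Nkg7. Of 10 stem cell genes, 1 fell at 1 day, all 10 were below 0 with a median of -0.36, beside -0.30 for the members, and 5 had an unadjusted p under 0.05. Their sum was 2491 to 3786 CPM with PBS and 1918 to 2732 CPM with IL-1β. The part of these shifts in the members' values was not tested.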

How the data were processed

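The values used are raw counts as deposited by the authors, whole numbers of reads for each gene symbol in 14 libraries. No normalisation is recorded for these counts. Per the labels' protocols, cDNA was amplified with SMARTer chemistry, made into Nextera XT libraries and read from a single end. Such libraries do not keep the strand. The submitters' processing notes list, without roles, DESeq2 1.12.3, STAR 2.4.2a, Cuffdiff, HTSeq 0.6.1, Trimmomatic 0.32 and Cufflinks 2.0.2, with the build GRCm38.p4. The annotation is not given in the sources used here, nor is the strand setting.

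Testing used edgeR's robust quasi-likelihood F-test (edgeR 4.0.16, R 4.3.3), two-sided, after TMM scaling and filterByExpr at a minimum count of 10. P-values were adjusted by Benjamini-Hochberg over the 15466 genes kept, with a threshold of 0.05. One fit held all 14 libraries, with terms for the naming set and for IL-1β at 1 and at 20 days, and had 8 residual degrees of freedom. PBS at 20 days was set against PBS at 1 day in a fit of group means with 10. The SE, which is approximate, was taken from the size of the log2 fold change and the F statistic (log2 fold change over root F). Library totals of 21654896 to 29441947 counts make 3 counts equal to 0.102 to 0.139 CPM, which covers counting error only. No pair of replicates agreed as closely as sampling noise (chi-square per degree of freedom 10.7 or more). The test was checked on simulated data.

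Exon lengths and gene coordinates are from GENCODE M21 (GRCm38), and promoters from RefSeq (GRCm38.p6). Named genes are the 43 members and, from each pathway list, up to 3 called genes with the smallest p per comparison, or, with no call, the 2 lowest in p. Kit, Slamf1, Nkg7, Siglech, Tcf4 and the interferon genes were named after their values were seen. One gene of the lists is not reported here. The members and lists were chosen with earlier results of these data known. Alternatives were DESeq2 1.42.0, upper-quartile factors, no filter, no naming set term, a replicate block, the libraries of 1 duration alone, each library left out in turn and, added after the data were seen, both "10k" libraries left out and DESeq2 for the PBS comparison.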

Additional observations from a re-analysis of the deposited data

Results flagged for a closer look

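Each group of 4 libraries was searched for a single library far from the rest, over the members and the pathway genes followed library by library. Of 120 groups 4 were marked, and chance marks about 1 in 20. In Ifi44, PBS replicate 4 of 20 days was far below its group, at 56.3 CPM against 72.6 to 75.4 CPM. In Irgm2 the same library was again the low one, at 49.2 CPM against 84.2 to 89.5 CPM. Leaving this library out raised the number of members that fell at 1 day to 18. It is no library of that duration, but all 14 libraries were in 1 fit. Over the whole table, the number of genes that fell at 1 day went from 283 to 486 without it. In Oasl2, IL-1β replicate 3 of 20 days was high, at 147 CPM against 128 to 131 CPM. In Mb21d1, which encodes the DNA sensor cGAS, PBS replicate 3 of 20 days was high, at 49.7 CPM against 46.5 to 47.0 CPM, a small gap in a tight group.

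Slfn2 was the 1 gene of the pathway lists whose IL-1β effect differed between the durations in edgeR. The 20-day effect minus the 1-day effect was -1.05 ± 0.16 on the log2 scale (adjusted p = 0.00925), with 20-day values of 26.3 to 37.1 CPM under IL-1β and 69.8 to 89.6 CPM under PBS, and 1-day values of 43.2 to 52.3 and 50.6 to 69.1 CPM. It passed without any 1 library, but not without the naming set term or with the replicate number as a block.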

How the results depend on the processing

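No called member changed sign under any alternative. With 8 members lower at 1 day and 7 at 20 days in edgeR, DESeq2 called 16 and 9 and 4 in the difference between durations. Over the whole table DESeq2 called 657 genes lower at 1 day and 879 at 20 days. Upper-quartile factors gave 13 at 1 day, the libraries of 1 day alone 14, and the fit without the naming set term 4 at 1 day and 3 at 20 days. Leaving out 1 library gave 4 to 18 at 1 day, 3 to 8 at 20 days and 0 to 1 in the difference; without both "10k" libraries 5 fell at 1 day. With no filter 9 and 7 fell. The cause of these shifts was not tested. Over the whole table, 672 genes were called at 1 day (1398 by DESeq2, 290 without the naming set term, 1200 with that duration alone, 228 to 1244 without 1 library). At 20 days 1154 were called (1804, 525, 750 and 648 to 1156 in that order), and 331 in the difference (1182 by DESeq2, 23 without the naming set term, 34 to 604 without 1 library).

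With the replicate number as a block, 7 members fell at 1 day, 5 at 20 days and none passed in the difference (10 had an unadjusted p under 0.05), and the whole table gave 383, 672 and 23 calls. The block ended the calls of Isg20 at both durations and Igtp at 20 days, and outside the members those of Socs3 and Irf5 at 1 day, Ifnar2, Ifngr2 and Sp110 at 20 days, and the Slfn2 difference. After group means were taken out, same-numbered PBS and IL-1β libraries correlated between -0.03 and 0.18 at 1 day and between 0.02 and 0.27 at 20 days. Differently numbered ones correlated between -0.18 and 0.10 at 1 day and between -0.24 and 0.09 at 20 days. The ranges overlap, with the same-numbered ones reaching higher, so these values do not settle whether the numbers pair the samples. The main fit did not pair by number.

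Limits: each group has 3 or 4 pools, the naming sets are of unknown meaning and each belongs to 1 duration, and Mx1, Mx2 and Ifit3 rest on few counts. Of the 35 and 36 members not called at 1 and 20 days, 11 and 4 passed under at least 1 alternative, so a member that did not pass is not shown to be unchanged.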

Other observations

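A few signalling genes of the pathway lists had their lowest p in the difference between durations without passing. Ikbke, a kinase that acts on IRF factors, had 0.72 ± 0.20 (adjusted p = 0.0742), with 49.8 ± 3.41 CPM under PBS and 36.3 ± 4.64 CPM under IL-1β at 1 day (SD, n = 3 each), and 57.9 ± 2.53 and 70.9 ± 20.3 CPM at 20 days (SD, n = 4 each). Mb21d1 went the other way, at -0.59 ± 0.19 (adjusted p = 0.122), with 47.2 ± 7.44 and 63.2 ± 3.44 CPM at 1 day and 47.5 ± 1.51 and 43.3 ± 10.7 CPM at 20 days. Jak2 had 0.58 ± 0.22 (adjusted p = 0.171) and Irf2, a repressor at ISRE sites, 0.41 ± 0.16 (adjusted p = 0.198). All 9 receptor and signalling genes tested had a 20-day effect above that of 1 day, 4 of them at an unadjusted p under 0.05. Of all 15466 genes, 7955 were above 0 and 2842 had an unadjusted p under 0.05. EdgeR called none of the 9, so this is no result about them as a set.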
